A study of Mus musculus with 18 samples.

Results

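The genes described here are 9 that restrain the cell cycle or carry the p53 response: the Cip/Kip inhibitors Cdkn1a, Cdkn1b and Cdkn1c, the Ink4 inhibitors Cdkn2a, Cdkn2b, Cdkn2c and Cdkn2d, the transcription factor Trp53, and its ubiquitin ligase Mdm2. They were taken by name, with no threshold on a measured value but with earlier results of these data known, from 21938 protein-coding genes of the GENCODE annotation. For each of the 9 genes, a window made of the gene body and 50 kb on both sides was compared with 6 lists of regions called by ChIP-Seq in mouse liver. All 9 genes were found in the annotation, and their windows ranged from 103 kb at Cdkn1c and Cdkn2d to 122 kb at Mdm2.

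Lamin B1, a protein of the nuclear lamina, and H3K9me3, a histone mark of heterochromatin, were profiled in livers of male C57BL/6 mice aged 3 months (young) and 21 months (old), with 2 replicates for each antibody and age. Foxa2, a pioneer transcription factor of the forkhead family, was profiled in livers of Zmpste24 KO mice and their wild-type (WT) littermates aged 12 weeks, with 3 replicates per genotype. Zmpste24 encodes the metalloprotease that processes prelamin A, and mice without it are used as a progeroid laminopathy model in which every tissue, not the liver alone, lacks the enzyme. The series holds 18 samples, and its H3K9me2 libraries were not analysed here. Whole liver tissue was used, so the lists describe all of its cell types together, and because the lists hold positions without expression values, the tissue could not be checked against marker genes.

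The replicates of each condition were merged before regions were called, and 1 list was used per condition, with no score, height or read count per region. No spread between replicates can therefore be given, no comparison below was tested, and "called" and "not called" describe the merged lists. The merged lamin B1 lists held 1624 domains covering 466 Mb in young and 1519 covering 930 Mb in old livers, and the H3K9me3 lists held 2784 regions covering 576 Mb and 2496 covering 617 Mb. The Foxa2 lists held 4960 sites in WT and 8177 in Zmpste24 KO livers, with median widths of 941 bp and 889 bp. The H3K9me3 lists used here hold fewer regions at each age than the study describes, so an absence of H3K9me3 below is an absence from these lists and does not show that the mark was absent or that the ages differed. The old lamin B1 domains cover more of the genome and hold more start sites than the young ones, as the shares of all genes below show, and without scores or replicate lists these calls could not be checked. The young lamin B1 list was also rich in genes. Its 466 Mb held 36.0% of all start sites, whereas the 576 Mb of young H3K9me3 held 12.9%. A share of 100% in old livers is thus a statement about this merged list. Edges of the lamin B1 and H3K9me3 regions fall on windows of 10 kb, which sets the resolution of every edge below. According to the study's supplement, the merged old library had fewer aligned reads than the young one for lamin B1 and more for H3K9me3, and the part of depth in the differences between ages was not tested.

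Cyclin-dependent kinases drive cells through the division cycle. Cip/Kip proteins bind cyclin and kinase complexes broadly, whereas Ink4 proteins bind Cdk4 and Cdk6 and so keep the retinoblastoma protein active. Trp53 responds to DNA damage and other stress and induces Cdkn1a and Mdm2, and Mdm2 in turn marks p53 for degradation. The Cdkn2a locus encodes both p16Ink4a and p19Arf from separate first exons, is held silent by polycomb proteins in young tissues and is widely used as a marker of senescent cells. Genes in lamina-associated domains, the parts of the genome that touch the nuclear lamina, and genes under H3K9me3 tend to be silent, while Foxa2 can bind condensed chromatin and open it in hepatocytes. Whether genes in the domains called here were silent was not tested.

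Lamin B1 domains reached 6 of the 9 windows in young livers, those of Cdkn1a, Cdkn1b, Cdkn2c, Cdkn2d, Trp53 and Mdm2, whereas 44.4% of all protein-coding genes had a domain in a window built the same way. In old livers 6 windows were again reached, with Cdkn1c in the list and Cdkn2c absent from it, beside 68.5% of all genes. A domain called in the young list and absent from the old one was therefore found at 1 of the 9 genes, Cdkn2c (4.01% of all genes), and the converse at 1 gene, Cdkn1c (28.1% of all genes). H3K9me3 was called in 4 windows in young livers, at Cdkn1c, Cdkn2a, Cdkn2b and Mdm2 (25.6% of all genes), and in 4 windows in old livers, at Cdkn1a, Cdkn1c, Cdkn2d and Mdm2 (41.6% of all genes). H3K9me3 was listed in young and not in old livers at Cdkn2a and Cdkn2b (8.44% of all genes), and in old and not in young livers at Cdkn1a and Cdkn2d (24.5% of all genes). Foxa2 sites lay in the windows of Cdkn1b and Cdkn2c in WT livers (30.5% of all genes) and of Cdkn1b, Cdkn2c and Cdkn2d in Zmpste24 KO livers (38.5% of all genes). None of the 9 windows held a site in the WT list while lacking one in the KO list (11.3% of all genes), and Cdkn2d was the 1 window with the converse (19.3% of all genes).

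**Figure D1:**
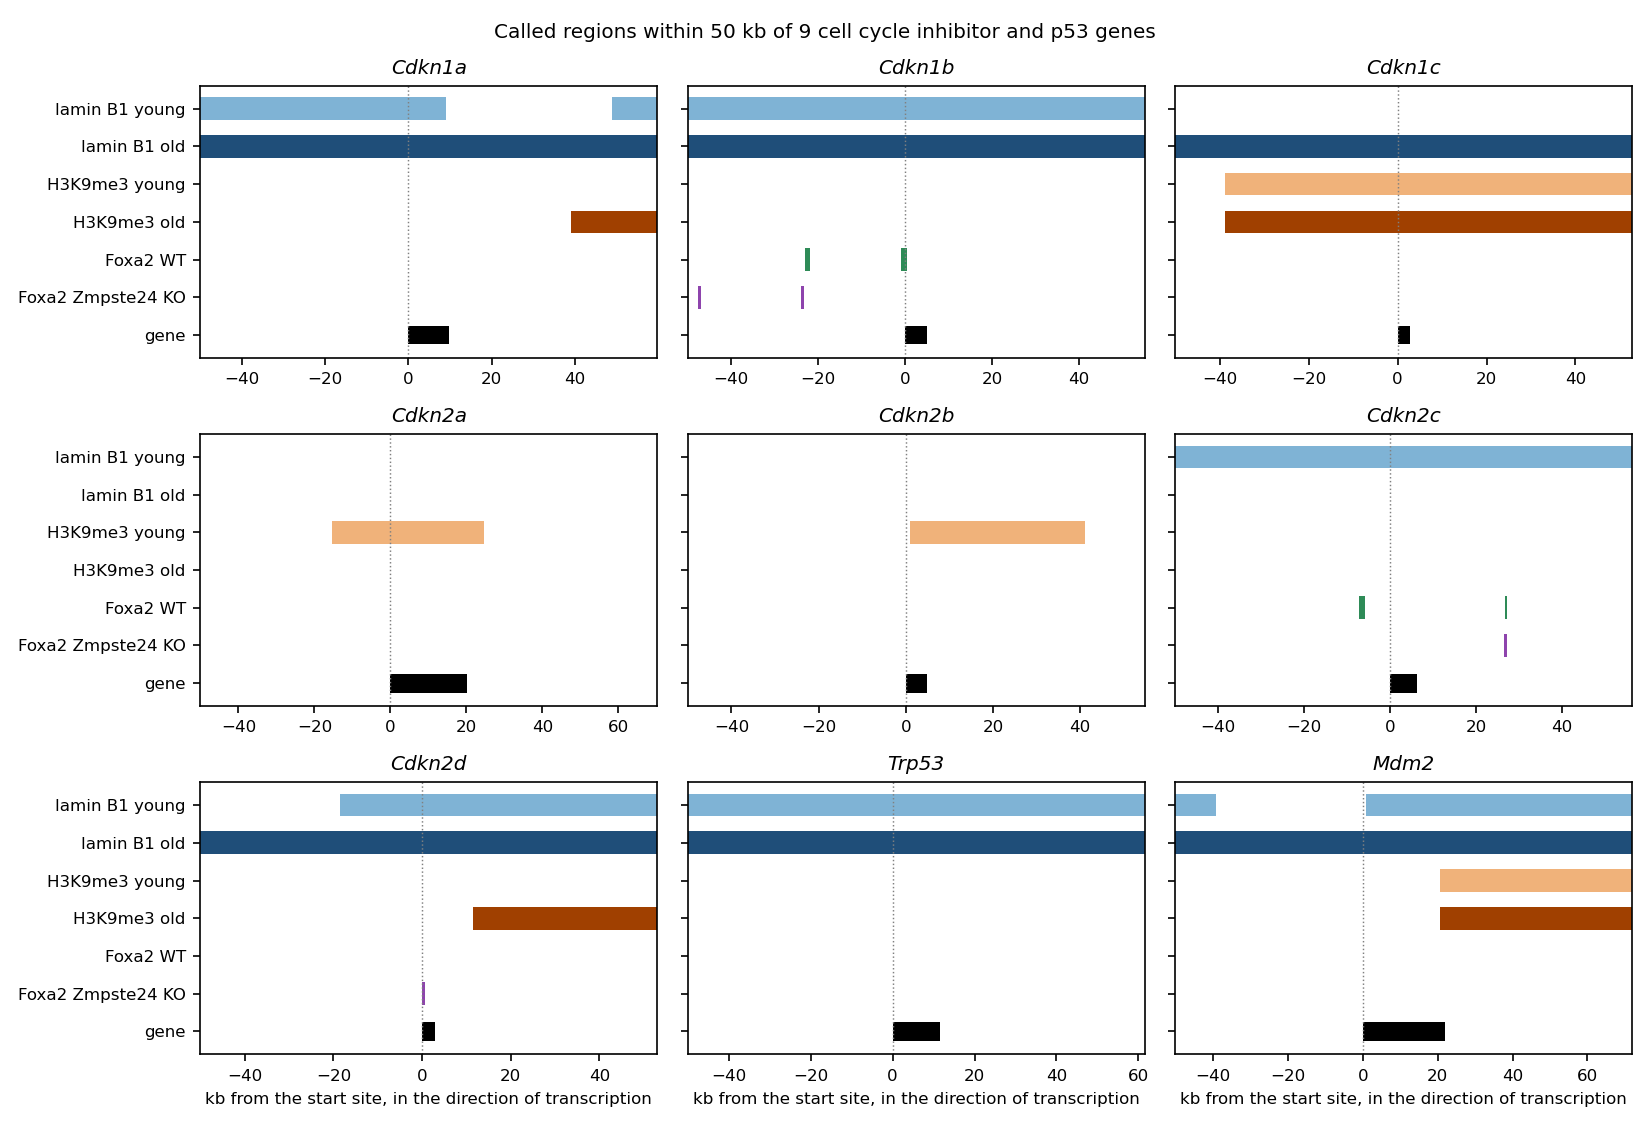
Regions called in each of the 6 lists (rows) within 50 kb of the 9 genes, with distance from the start site in kb on the horizontal axis, drawn in the direction of transcription, and the gene body in black. Each bar is a called region of merged replicates, and the old lamin B1 row is filled across the window at 6 genes and empty at Cdkn2a, Cdkn2b and Cdkn2c.

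Among the Cip/Kip inhibitors, Cdkn1a, which encodes p21, the main p53-induced inhibitor, lies on chromosome 17 at 29090976-29100727 on the plus strand (ENSMUSG00000023067.14). In young livers its start site was inside a lamin B1 domain at 28670001-29100000 (430 kb) whose edge fell 9.02 kb past the start site. That edge lay just short of the gene end, and both distances are below the 10 kb resolution. A second young domain at 29140001-29930000 (790 kb) began downstream of the gene, so 63.6% of the window was covered. In old livers the whole window (100%) lay in a single domain of 6160 kb at 23920001-30080000, the 9th longest of 1519 and one that held the start sites of 191 genes. H3K9me3 was not called in the window in young livers, and in old livers a region of 250 kb at 29130001-29380000 began 39.0 kb downstream of the start site and covered 18.9% of it. The nearest Foxa2 sites were 330 kb away in WT and 103 kb away in Zmpste24 KO livers, both outside the window.

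Cdkn1b encodes p27, an inhibitor that keeps resting cells out of the cycle, and lies on chromosome 6 at 134920401-134925513 on the plus strand (ENSMUSG00000003031.14). Lamin B1 covered its whole window (100%) at both ages, in a domain of 1350 kb at 133910001-135260000 in young livers, the 15th longest of 1624, and of 1730 kb at 133870001-135600000 in old livers. No H3K9me3 region was called in the window at either age. Cdkn1b had the most Foxa2 sites of the 9 genes, 2 in WT and 2 in Zmpste24 KO livers, and none of the 4 overlapped a site of the other list. Most sites did not, since 27.2% of all WT sites and 16.7% of all KO sites overlapped one. One WT site, at chr6:134919456-134920900 (1445 bp, 60.7% GC), covered the start site and the first bases of the transcript, and the nearest KO site to it was 22236 bp away. Cdkn1b was thus the 1 gene of the 9 with a WT site within 1 kb of its start site (3.43% of all genes).

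The other WT site at Cdkn1b, at chr6:134897310-134898472 (1163 bp), was centred 22.5 kb upstream, over exonic and untranslated sequence of Gpr19, a neighbouring gene for an orphan G protein-coupled receptor. The KO list had a site of 680 bp only 90 bp from it, at chr6:134896541-134897220, also over Gpr19 exonic sequence, and a second of 679 bp in a Gpr19 intron at chr6:134872824-134873502, centred 47.2 kb upstream of Cdkn1b. The forkhead word TGTTTAC, counted on both strands, was present once in the upstream WT site and once in the intronic KO site. It was in neither the site at the start nor the KO site beside the WT one. Both of these held at least 1 related forkhead word, as described with Cdkn2d below. Of all sites, 27.7% in the WT and 23.4% in the KO list held TGTTTAC. The stretches around both matches are given on the plus strand of mm10 with the word in capitals, the first at chr6:134898325-134898353 and the second at chr6:134872963-134873089, because the word is the sequence known to be preferred by Foxa proteins.
Cdkn1b WT site: tgcgcagtgctTGTTTACcgcgggccgag
Cdkn1b KO site: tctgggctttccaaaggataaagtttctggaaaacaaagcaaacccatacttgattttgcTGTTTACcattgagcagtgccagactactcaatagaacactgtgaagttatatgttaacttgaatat

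The promoter of Cdkn1b that the WT site covered was rich in CpG dinucleotides. The 250 bases before its start, at chr6:134920151-134920400 on the plus strand, held 28 of them, which are in capitals below, and no TGTTTAC.
Cdkn1b promoter: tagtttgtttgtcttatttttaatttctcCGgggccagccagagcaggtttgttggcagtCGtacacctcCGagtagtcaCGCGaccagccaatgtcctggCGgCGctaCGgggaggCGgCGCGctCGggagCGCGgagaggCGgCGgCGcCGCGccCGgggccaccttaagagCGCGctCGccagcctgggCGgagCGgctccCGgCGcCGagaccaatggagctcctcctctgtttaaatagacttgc

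Cdkn1c encodes p57, an imprinted inhibitor expressed in embryonic and quiescent cells, and lies on chromosome 7 at 143458339-143461050 on the minus strand (ENSMUSG00000037664.13). Within its window the lists differed between ages in lamin B1 and not in H3K9me3. In young livers no lamin B1 domain was called in the window, and the nearest was 6001 kb away. In old livers a domain of 2090 kb at 143250001-145340000, which held the start sites of 28 genes, covered 100% of the window, and 0% of that domain overlapped a young one. H3K9me3 covered 89.2% of the window at both ages, in regions of 320 kb at 143180001-143500000 in young and 430 kb at 143070001-143500000 in old livers that shared their edge upstream of the gene. In old livers 91.7 kb of the window lay in both lamin B1 and H3K9me3, the most of the 9 genes. The nearest Foxa2 sites were 78.9 kb away in WT and 133 kb away in KO livers.

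Among the Ink4 inhibitors, Cdkn2a lies on chromosome 4 at 89274471-89294653 (ENSMUSG00000044303.6) and Cdkn2b, which encodes p15Ink4b, at 89306299-89311039 (ENSMUSG00000073802.5), both on the minus strand with start sites 16.4 kb apart. Their windows overlap, so the regions described for one are in part those of the other and the pair does not count as 2 independent loci. In young livers an H3K9me3 region of 40 kb at 89270001-89310000 covered 100% of the Cdkn2a gene body and 78.1% of the Cdkn2b gene body. It was among the shortest of its list, 2728th of 2784 by length, and took up 33.3% of the Cdkn2a and 38.2% of the Cdkn2b window. The Cdkn2a start site was inside it, and that of Cdkn2b 1039 bp outside, a distance below the 10 kb resolution. In old livers 0% of the region was called, and the nearest H3K9me3 region, at 89160001-89200000, was 94.7 kb from the start site of Cdkn2a and 111 kb from that of Cdkn2b.

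No lamin B1 domain reached either window at either age. The nearest to the start sites of Cdkn2a and Cdkn2b were 285 kb and 269 kb away in young livers, at 89580001-89700000, and 115 kb and 131 kb away in old livers, at 89090001-89180000. No Foxa2 site lay in either window. The nearest were 129 kb and 112 kb away in WT and 95.0 kb and 78.6 kb away in Zmpste24 KO livers, for Cdkn2a and Cdkn2b respectively.

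Because the young H3K9me3 region holds both starts of Cdkn2a and ends beside that of Cdkn2b, the bases before these starts are shown 5′ to 3′ on the minus strand with each CpG in capitals. They were taken from the RefSeq promoter table on GRCm38.p6, the patch release of mm10, and trimmed at the annotated transcript starts. The upstream start, of the Arf transcript, had 35 CpGs in the 216 bases at chr4:89294654-89294869, the downstream start, of the Ink4a transcript, 7 in the 250 bases at chr4:89282193-89282442, and Cdkn2b 11 in the 243 bases at chr4:89311040-89311282.
Cdkn2a Arf start: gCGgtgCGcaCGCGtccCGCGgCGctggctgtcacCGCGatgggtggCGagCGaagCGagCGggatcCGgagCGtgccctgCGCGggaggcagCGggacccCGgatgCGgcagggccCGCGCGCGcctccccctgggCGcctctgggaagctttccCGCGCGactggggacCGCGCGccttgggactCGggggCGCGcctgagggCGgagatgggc
Cdkn2a Ink4a start: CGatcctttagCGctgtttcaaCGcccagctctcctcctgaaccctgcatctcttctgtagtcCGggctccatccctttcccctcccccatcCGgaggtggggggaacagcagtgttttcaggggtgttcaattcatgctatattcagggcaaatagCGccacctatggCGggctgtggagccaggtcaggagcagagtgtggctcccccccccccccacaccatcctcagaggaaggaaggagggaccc
Cdkn2b start: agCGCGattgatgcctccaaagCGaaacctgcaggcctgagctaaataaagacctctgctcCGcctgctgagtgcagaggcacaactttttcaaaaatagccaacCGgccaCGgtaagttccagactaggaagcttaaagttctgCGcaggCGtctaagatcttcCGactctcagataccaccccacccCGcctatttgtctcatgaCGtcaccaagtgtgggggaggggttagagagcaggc

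Cdkn2c encodes p18Ink4c and lies on chromosome 4 at 109660876-109667189 on the minus strand (ENSMUSG00000028551.14). It was the reverse of Cdkn1c: lamin B1 covered 100% of its window in young livers, in a domain of 410 kb at 109580001-109990000 that held 3 start sites, and 0% in old livers, where the nearest domain was 167 kb from the start site. Of the young domain, 12.2% was covered in old livers, at its far end upstream of the gene, by a domain at 109940001-110040000. H3K9me3 was not called in the window, and the nearest regions were 1113 kb away in young and 413 kb away in old livers. The neighbouring gene Faf1, whose start site is 9.40 kb from that of Cdkn2c, likewise had its start site in lamin B1 in young and not in old livers.

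Cdkn2c was the 1 gene of the 9 at which sites of both Foxa2 lists overlapped (10.9% of all genes). The shared site was at chr4:109640026-109640502 (477 bp) in WT and chr4:109640123-109640627 (505 bp) in Zmpste24 KO livers, 26.9 kb and 26.8 kb downstream of the start site, in an intron of the non-coding gene Gm12811. Both calls held the same TGTTTAC at 109640309-109640315, within the central 300 bases of the site, a property of 14.0% of WT and 11.1% of KO sites. A second WT site, at chr4:109673047-109674369 (1323 bp), was intergenic, 6.52 kb upstream of Cdkn2c and 2.88 kb from the start of Faf1, held no forkhead word and had AGATAA, a core word of GATA factors, 2 times on its plus strand. Of all WT sites, 41.7% held AGATAA on either strand. The centre of the shared site, at chr4:109640249-109640375 on the plus strand, is shown with the forkhead word in capitals because it is the stretch called in both genotypes.
Cdkn2c shared site: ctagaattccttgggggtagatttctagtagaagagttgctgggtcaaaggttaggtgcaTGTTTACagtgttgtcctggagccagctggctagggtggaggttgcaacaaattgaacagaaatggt

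Cdkn2d encodes p19Ink4d and lies on chromosome 9 at 21288410-21291407 on the minus strand (ENSMUSG00000096472.2). In young livers its start site was inside a lamin B1 domain of 520 kb at 20790001-21310000, 18.6 kb from the edge, and 69.5% of the window was covered. In old livers a domain of 2140 kb at 20380001-22520000 covered 100% of it. H3K9me3 was not called there in young livers. In old livers a region of 160 kb at 21120001-21280000 covered 40.4% of the window from 11.4 kb downstream of the start site, and the start sites of Keap1, S1pr5 and Atg4d, but not that of Cdkn2d, lay inside it.

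At Cdkn2d a Foxa2 site was called in Zmpste24 KO livers at chr9:21290641-21291388 (748 bp, 64.3% GC), with its middle 393 bp downstream of the annotated start site, and the nearest WT site was 324572 bp from it. It was the 1 site of the KO list within 1 kb of the start of any of the 9 genes (2.53% of all genes). The site overlapped untranslated sequence and 141 bp of coding sequence in the first coding exon and covered the RefSeq start site at 21291209. It held no TGTTTAC. The related forkhead word TATTTAC was absent from it too, as was the word TGTTTGC and the form that joins both changes, TATTTGC, while 58.8% of KO sites held one or more of these 4 words. Counted by the same 4 words, the WT site at the Cdkn1b start held 1 match. The KO site beside the upstream WT site of Cdkn1b held 3. The coding part of the Cdkn2d site, at chr9:21290809-21290949 on the minus strand, starts with the ATG of the protein and is given with its 15 CpGs in capitals.
Cdkn2d coding part of the site: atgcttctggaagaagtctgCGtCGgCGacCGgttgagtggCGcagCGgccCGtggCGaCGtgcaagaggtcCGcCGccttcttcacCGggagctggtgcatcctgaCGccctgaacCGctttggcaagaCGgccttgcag

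Trp53, which encodes p53, lies on chromosome 11 at 69580359-69591873 on the plus strand (ENSMUSG00000059552.13). Lamin B1 covered 100% of its window at both ages. The young domain at 68640001-70300000 (1660 kb) was the 5th longest of 1624 and held 87 start sites, and the old one at 66810001-71040000 (4230 kb) was the 16th longest of 1519 and held 146. The 7 other protein-coding genes that overlap the window, among them Wrap53, whose start site is 0.104 kb from that of Trp53 on the other strand, also had their start sites in lamin B1 at both ages. No H3K9me3 region was called in the window, with the nearest 6770 kb away in young and 150 kb away in old livers. The nearest Foxa2 sites were 333 kb away in WT and 138 kb away in KO livers.

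Mdm2 lies on chromosome 10 at 117688875-117710758 on the minus strand (ENSMUSG00000020184.15). In young livers the gene body lay in a lamin B1 domain of 420 kb at 117290001-117710000 whose edge was 758 bp short of the start site, below the resolution, and another of 80 kb at 117750001-117830000 began upstream, so that 67.2% of the window was covered. In old livers a domain of 800 kb at 117380001-118180000 covered 100%. H3K9me3 covered 41.9% of the window at both ages, from the 3′ end of the gene outward, in regions of 260 kb at 117430001-117690000 in young and 250 kb at 117440001-117690000 in old livers. Mdm2 was the 1 gene of the 9 with lamin B1 and H3K9me3 called over the same bases at both ages, 51.1 kb in each (7.33% of all genes). The nearest Foxa2 sites were 118 kb away in both genotypes.

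Set in order of the share of the window under lamin B1, Cdkn1b, Cdkn2c and Trp53 came first in young livers with 100%, a share that 21.8% of all genes had, before Cdkn2d, Mdm2 and Cdkn1a between 69.5% and 63.6%, and Cdkn1c, Cdkn2a and Cdkn2b at 0%. In old livers the order had 2 steps, with 6 genes at 100%, a share that 49.6% of all genes had, and Cdkn2a, Cdkn2b and Cdkn2c at 0%. The median of the 9 genes was 67.2% in young and 100% in old livers, beside 0% and 98.5% over all genes, and the means over all genes were 34.8% and 61.1%. From young to old the share was higher at 4 of the 9 genes (Cdkn1a, Cdkn1c, Cdkn2d, Mdm2), lower at Cdkn2c and equal at the other 4, beside 44.2% of all genes higher, 9.57% lower and 46.2% equal.

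For H3K9me3 the order was Cdkn1c (89.2%), Mdm2 (41.9%), Cdkn2b (38.2%) and Cdkn2a (33.3%) in young livers and Cdkn1c (89.2%), Mdm2 (41.9%), Cdkn2d (40.4%) and Cdkn1a (18.9%) in old livers, with the remaining genes at 0%. The share was higher in old livers at 2 genes, lower at 2 and equal at 5, beside 33.0%, 13.1% and 54.0% of all genes, and the mean over all genes was 13.4% in young and 25.6% in old livers. Steps of a few points between neighbours in these orders are below what windows of 10 kb resolve, since each window is little more than 10 such steps long.

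**Figure D2:**
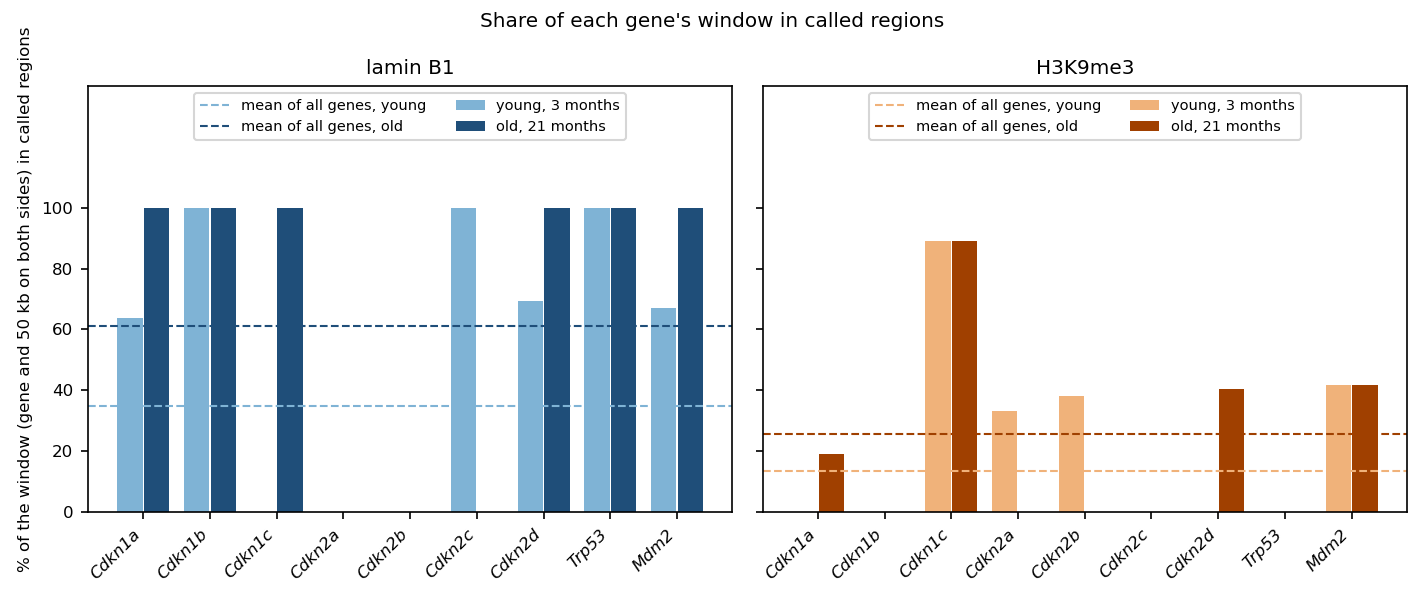
Share of each window, in percent, covered by lamin B1 domains (left) and H3K9me3 regions (right) in young and old livers, 1 bar per gene and merged list, with dashed lines at the means over all protein-coding genes. Lamin B1 stood at 100% in old livers at 6 genes and at 0% at Cdkn2a, Cdkn2b and Cdkn2c, and H3K9me3 was called at Cdkn2a and Cdkn2b in young livers alone.

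At the start sites themselves, lamin B1 was called over 5 of the 9 in young livers (36.0% of all genes), those of Cdkn1a, Cdkn1b, Cdkn2c, Cdkn2d and Trp53, and over 6 in old livers (62.3% of all genes). The Cdkn2c start was in lamin B1 in young and not in old livers (4.26% of all genes), and those of Cdkn1c and Mdm2 in old and not in young livers (30.5% of all genes). For Mdm2 this rests on an edge 758 bp from the start, below the 10 kb resolution. H3K9me3 was called over the starts of Cdkn1c and Cdkn2a in young livers (12.9% of all genes) and over that of Cdkn1c in old livers (24.4% of all genes). Cdkn2a was the 1 start listed in young and not in old livers (5.87% of all genes), and none of the 9 was listed in old and not in young livers (17.3% of all genes). The H3K9me3 regions found in old livers at Cdkn1a and Cdkn2d thus stopped short of both starts, by 39.0 kb and 11.4 kb.

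The surroundings of the genes were compared over 1 Mb on both sides of the start site. These shares were computed for the 9 genes alone, so no share over all genes stands beside them. Over the genome the lists grew from 466 Mb to 930 Mb for lamin B1 and from 576 Mb to 617 Mb for H3K9me3. Whether the rises below exceed that growth was not tested. Around Cdkn1c lamin B1 covered 0% in young and 88.0% in old livers, and H3K9me3 16.0% and 55.9%. Around Cdkn2a H3K9me3 covered 25.7% in young and 5.73% in old livers and lamin B1 13.3% and 4.50%, so that the absence of the 40 kb region in old livers came with fewer called bases of both kinds in its neighbourhood. The surroundings of Cdkn2c were alike in extent of lamin B1, which covered 32.1% at the young and 31.6% at the old age, although the domain over the gene was called in young livers alone. Around Cdkn1a, Cdkn2d and Mdm2 lamin B1 covered 82.5%, 73.1% and 44.0% in young and 99.5%, 95.6% and 69.5% in old livers. H3K9me3 over the same stretches covered 22.5%, 31.1% and 52.5% in young and 56.5%, 61.6% and 68.0% in old livers. Around Trp53 and Cdkn1b, which had no H3K9me3 in their windows, it covered 0% and 14.0% in young and 18.5% and 37.5% in old livers.

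**Figure D3:**
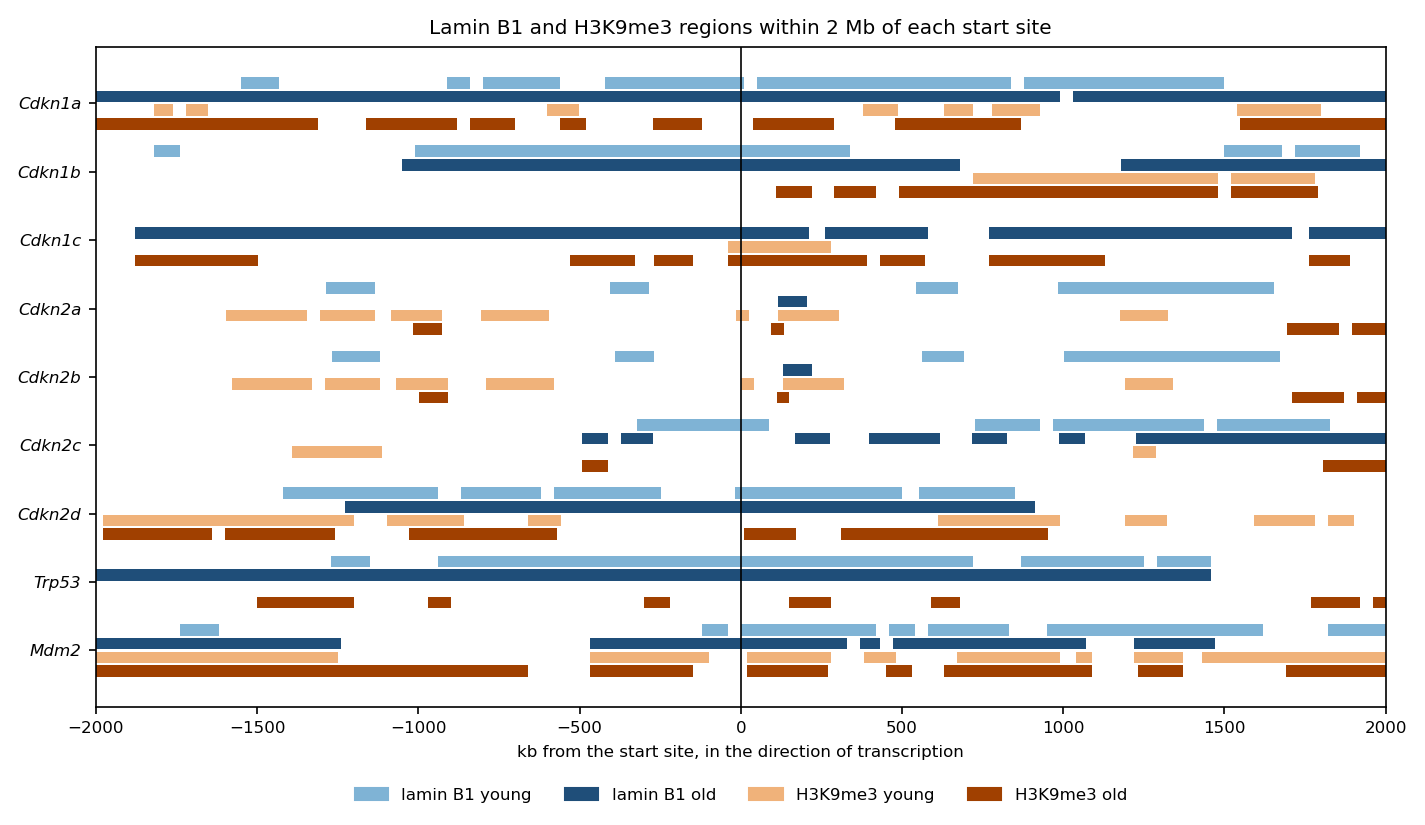
Lamin B1 (blue) and H3K9me3 (orange) regions in young (light) and old (dark) livers around the 9 start sites, with distance in kb in the direction of transcription on the horizontal axis and 1 row per list under each gene. Long old lamin B1 domains run through Cdkn1a, Cdkn1b, Cdkn1c, Cdkn2d and Trp53, while Cdkn2a and Cdkn2b lie in a stretch with few regions in old livers.

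In all, 8 Foxa2 sites lay in the 9 windows, 4 from each list, at 3 genes. Of the 8, 4 held TGTTTAC, counting the word of the shared Cdkn2c site in both lists. With the 4 forkhead words counted together, 6 of the 8 held one or more, beside 62.3% of all WT and 58.8% of all KO sites. All 8 midpoints lay in young lamin B1 domains and outside H3K9me3, which for the 7 at Cdkn1b and Cdkn2c was fixed by their windows, wholly covered by young lamin B1 and free of H3K9me3. Of all sites, 35.5% in WT and 28.0% in KO livers had their midpoint in young lamin B1, 63.5% and 49.2% in old lamin B1, 19.4% and 21.6% in young H3K9me3 and 22.9% and 22.4% in old H3K9me3. Whether a site at Cdkn1b, Cdkn2c or Cdkn2d lay in old lamin B1 was likewise set by its window, covered at Cdkn1b and Cdkn2d and not at Cdkn2c. The Foxa2 and lamin B1 lists come from different mice, so these overlaps compare positions and not the same chromatin. All 4 KO sites were narrower than the median of their list, with widths from 505 bp to 748 bp beside 889 bp. The GC content of the sites at the starts of Cdkn1b and Cdkn2d, 60.7% and 64.3%, was above the medians of their lists, 45.8% in WT and 42.8% in KO livers.

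Promoters of 300 bases, from 250 before to 50 after the start, were present in the RefSeq table for 8 of the 9 genes, and that of Cdkn1c was not used here. The upstream Cdkn2a promoter held 45 CpGs, Mdm2 35, the upstream one of Cdkn2c 33, Cdkn1b 30, the downstream one of Cdkn1a 23, Cdkn2d 22 and Cdkn2b 18, all above the median of 7 over 32851 promoters. The downstream Cdkn2a promoter with 12, Trp53 with 10 and the downstream one of Cdkn2c with 8 were nearer to the median, and the upstream one of Cdkn1a, with 2, was below it. TGTTTAC occurred once in the Mdm2 promoter and in none of the other promoters of the 8 genes, and 3.65% of all promoters held it. CpG-rich promoters were found under lamin B1 at both ages (Cdkn1b, 30), outside it at both ages (Cdkn2a, 45) and under it in young livers alone (Cdkn2c, 33). That of Mdm2 (35) was under it in old livers. In young livers its start lay 758 bp outside a domain, below the 10 kb resolution, so it could not be placed.

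The presence or absence of a region in the 6 lists gave each gene a pattern that could be looked for among all genes. That of Cdkn2c, with lamin B1 in young livers alone, Foxa2 in both genotypes and no H3K9me3, was the rarest of the 9, shared by 0.337% of genes. Those of Cdkn1c, Cdkn2d, Cdkn2a with Cdkn2b, and Mdm2 were shared by 2.51%, 2.79%, 2.96% and 3.50%, and those of Cdkn1b, Cdkn1a and Trp53 by 4.70%, 5.32% and 6.45%. The Cdkn2c pattern rests on the 50 kb flank, since the only KO site in its window was centred 26.8 kb from the start site and lies outside flanks of 10 kb. The gene with the most similar coverage was also sought among 99 genes of the cell cycle, p53 and senescence pathways, by the sum of the differences in coverage, in percentage points, over the 4 lamin B1 and H3K9me3 lists. For Trp53 and Cdkn1b, 12 of the 99 genes tied with a sum of 0, among them Ccnb1, which encodes cyclin B1, E2f2, E2f4 and the polycomb gene Eed, so the pattern singled out no gene. For Cdkn2a and Cdkn2b it was Plk2, a p53-induced kinase, with sums of 0.244 and 5.15 points, since Plk2 had no lamin B1 and an H3K9me3 share of 33.0% in young and 0% in old livers. Il6 came next with 5.23 and 10.1 points, and windows of 10 kb do not resolve the 2 genes. The likeness is in share alone, since the Plk2 start site, unlike that of Cdkn2a, lay outside young H3K9me3. For Cdkn1a the most similar gene was Rbl1, which encodes the retinoblastoma relative p107 (15.5 points), for Cdkn1c the polycomb gene Cbx7 (19.3 points), and for Cdkn2c the transcription factor gene E2f5 (20.6 points). For Cdkn2d the sum was 31.0 points to Mdm4 and a nearly equal 31.1 to Rbl1, and for Mdm2 44.2 points to Apaf1.

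The same lists were read at 5 groups of genes around the 9. Of 17 regulators of p53, 9 start sites lay under lamin B1 at the young age and 11 at the old age (52.9% and 64.7%), with 5 listed in old livers alone and 3 in young livers alone, where the shares over all genes were 30.5% and 4.26%. Of 26 p53 targets, 12 and 21 did (46.2% and 80.8%), with 10 in old and 1 in young livers alone. Of 24 cyclins, kinases and Rb and E2f family genes, 16 and 21 did (66.7% and 87.5%), of 12 polycomb repressors and related regulators of Cdkn2a 7 and 9 (58.3% and 75.0%), and of 20 secreted factors of senescent cells 6 and 11 (30.0% and 55.0%). In the last 3 groups 7, 4 and 5 start sites were listed in old livers alone and 2, 2 and 0 in young livers alone. The shares over all genes were 36.0% and 62.3%. In H3K9me3 the start sites of these groups, in the same order, stood at 5.88%, 11.5%, 20.8%, 8.33% and 5.0% in young and 11.8%, 23.1%, 20.8%, 33.3% and 25.0% in old livers, beside 12.9% and 24.4% of all genes.

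**Figure D4:**
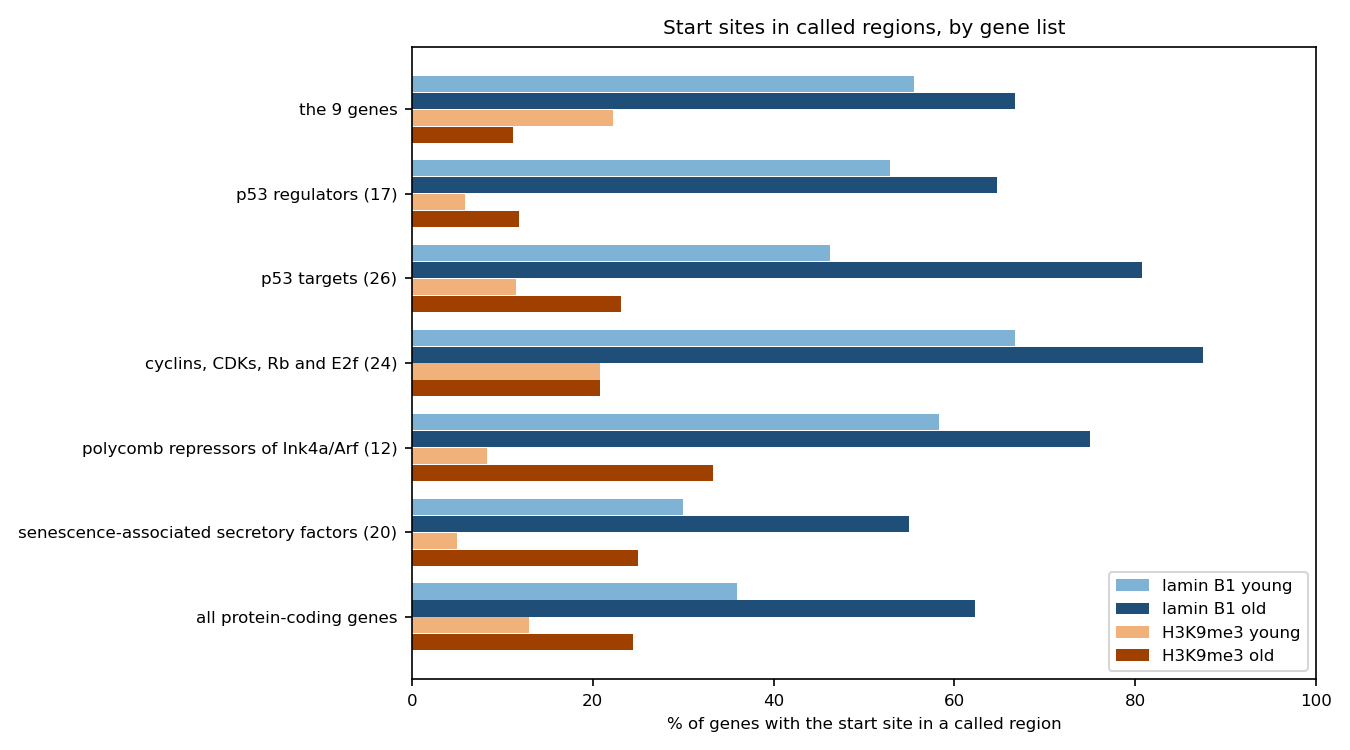
Percent of genes with the start site in a called region (horizontal axis) for the 9 genes, 5 groups of pathway genes with their sizes in parentheses, and all protein-coding genes, with 1 bar per lamin B1 or H3K9me3 list. Lamin B1 bars were longer in old than in young livers in every group, and among the p53 targets they stood at 46.2% and 80.8%.

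Genes named from these groups are those with the largest difference in lamin B1 coverage, ties in alphabetical order, and those with the most Foxa2 sites in Zmpste24 KO livers. The p53 relative Trp73 and the p53 ubiquitin ligase Rchy1 had 0% of the window under lamin B1 at the young age and 100% at the old age, and the p53 kinase gene Hipk2 had 1.99% and 100%. Rchy1 had H3K9me3 over 88.6% in young and 0% in old livers. Of the p53 targets, the nuclease gene Aen, the pro-apoptotic Bid and the antiproliferative Btg2 had 0% and 100%, as did the cyclin genes Ccnd1 and Ccnd2, E2f3, the polycomb genes Cbx2, Cbx7 and Cbx8, and the secreted factors Igfbp3, Igfbp5 and Tgfb1. Some genes were covered less in old than in young livers, as Cdkn2c was, and these were named after their values were seen. They include E2f5 (79.4% and 0%), the DNA repair kinase gene Prkdc (63.2% and 0%), the polycomb gene Bmi1 (60.8% and 0%) and the DNA damage kinase gene Atm (100% and 46.0%), in young and old livers.

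In the windows of the regulators of p53, 4 of 17 genes held a Foxa2 site in WT and 9 in KO livers, with 3 KO sites each at Atm and the p53 relative Trp63 and 2 at the ubiquitin ligase gene Cop1. The p53 targets counted 7 of 26 in WT and 12 in KO livers, led by Bid with 4 KO sites, the stress-response gene Sesn2 with 3 and the growth arrest gene Gadd45b with 2. The cyclin, kinase, Rb and E2f group counted 8 of 24 and 13, led by E2f2 and the Ink4-bound kinase gene Cdk6 with 4 KO sites each and the mitotic kinase gene Cdk1 with 2. The polycomb group counted 5 of 12 in both lists, with 3 KO sites at Kdm2b and 2 each at Rnf2 and Ezh1. The secreted factors counted 5 of 20 and 6, with 2 KO sites at Vegfa and 1 each at Igfbp7 and Gdf15. Among the 9 genes the count was 2 in WT and 3 in KO livers, and over all genes the shares were 30.5% and 38.5%. The genes named in these groups were picked by KO sites alone, so their counts do not show a gain. Ties such as E2f7 and Perp, with 2 KO sites each, were left out. In the WT list E2f2 had 3 sites, Cdk1 2, Trp63, Bid, Sesn2, Gadd45b and Kdm2b 1 each, and the other named genes 0. Some genes not named went the other way, among them Cbx8 (3 WT and 0 KO sites) and Ccne2 (3 and 1).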

How the data were processed

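Reads were mapped by the authors to mm10 using BWA, duplicates and multiply mapped reads were discarded, and replicates were pooled. Lamin B1 domains were called with Epic, an implementation of SICER, in windows of 10 kb with a gap of 3 windows, and Foxa2 sites with PeakSeq against input, with mutant reads reduced to the WT number. The caller of the H3K9me3 regions is not given in the sources used here. The deposited files hold other values than counts, namely genome positions (chromosome, start, end) of regions in 6 merged lists, without depth, score or replicate values. The condition of each list was taken from its name, and the first position of each region was read as counted from 0.

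Genes came from GENCODE vM21 and sequence from GRCm38.p6. A region was counted at a gene where at least 1 bp of it fell in the gene body or 50 kb on either side. The 9 genes and the pathway lists were chosen with earlier results of these data known. From each pathway list, 3 genes were named by lamin B1 difference and 3 by the number of KO sites. The interval code was tested on simulated data. Python 3.11.15, numpy 2.4.6, pandas 2.3.3, pysam 0.24.0, samtools 1.23.1 and matplotlib 3.10.9 were used.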

Additional observations from a re-analysis of the deposited data

How the results depend on the processing

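No paired analysis was possible because the replicates were merged before calling and no result comes from a test, and for the same reason no replicate was left out and no stricter score was set. Of 48 counts of members or sites recomputed under alternative settings, 38 were within 1.5 times the reported count. With no flank around the gene body, H3K9me3 in old livers was called at 2 genes in place of 4, Foxa2 in WT at 1 in place of 2 and in Zmpste24 KO livers at 1 in place of 3. The KO count was 1 with flanks of 10 kb, 6 with flanks of 100 kb, and 0 when sites narrower than the median of the list were left out. When at least 50% of the window had to be covered, H3K9me3 counted 1 gene at each age. Without H3K9me3 regions under 50 kb, which removes the 40 kb region at Cdkn2a and Cdkn2b, the young count was 2 windows and 1 start site. With the start of any transcript in place of the gene start, 6 genes in place of 5 had a start in young lamin B1, Mdm2 being the addition. The counts of lamin B1 windows kept within 1.5 times the reported count under every alternative run.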
